A study of Homo sapiens with 6 samples.

Results

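The glucocorticoid receptor gene NR3C1 and 9 genes that are widely known to respond to glucocorticoids were followed by RNA-seq in 3 human cell lines with 2 libraries each. The 9 target genes were TSC22D3, FKBP5, PER1, DUSP1, KLF9, ZBTB16, SGK1, ERRFI1 and CEBPD. All 10 were picked by gene symbol, with earlier results of these data known though with no measured value in the rule, and they are 10 of the 23340 gene names kept from the deposited tables. The lines were HT-29, a colon adenocarcinoma line, labelled as given interferon-γ (IFN-γ) at 200 U per ml for 24 h and grown in McCoy's medium with 10% fetal bovine serum, MDA-MB-436, a breast adenocarcinoma line, untreated and grown with 10% fetal bovine serum in medium without CO2, and MCF10A, a non-tumorigenic mammary epithelial line, untreated. The MCF10A medium held 5% horse serum, EGF at 20 ng per ml, hydrocortisone at 500 ng per ml, cholera toxin at 100 ng per ml and insulin at 10 µg per ml. Hydrocortisone, the pharmaceutical name of cortisol and a ligand of the receptor, is named for the MCF10A medium alone. Cell line, medium and treatment therefore cannot be told apart in any comparison here, and HT-29 cells without IFN-γ were not analysed here.

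The recovered totals, in Mreads, were 18.4 and 50.2 in the HT-29-labelled libraries, 16.7 and 56.4 in the MDA-MB-436-labelled ones, and 18.3 and 69.5 in MCF10A (megareads). The protocol describes duplicate runs at different depths without naming separate cultures; the p-values here reflect just the spread between 2 libraries of a line, possibly technical. The markers went against 2 of the 3 labels. KRT20, an intestinal keratin, averaged 0.274 normalised counts in the HT-29-labelled libraries, 30390 ± 693 (SD, n = 2) in the MDA-MB-436-labelled ones and 0.736 in MCF10A. VIL1, the brush border protein villin, had no read in the HT-29-labelled libraries, 2126 ± 101 normalised counts in the MDA-MB-436-labelled ones and no read in MCF10A. VIM, the mesenchymal filament vimentin, averaged 35933 ± 942 normalised counts in the HT-29-labelled libraries, 11.9 ± 6.42 in the MDA-MB-436-labelled ones and 26074 ± 244 in MCF10A. Of 7 intestinal markers, 3 (VIL1, CDX2 and CDX1) had no read in the HT-29-labelled libraries, and the summed level of the list was 3.00 to 6.57 normalised counts there, 67635 to 70847 in the MDA-MB-436-labelled ones and 16.7 to 16.9 in MCF10A. A list of 7 genes known to be induced by IFN-γ summed to 4540 to 4559 in the HT-29-labelled libraries, 219446 to 220260 in the MDA-MB-436-labelled ones and 487 to 511 in MCF10A. The summed basal mammary keratins and partners were 9163 to 9817 in the HT-29-labelled libraries, 32288 to 32412 in the MDA-MB-436-labelled ones and 849984 to 867629 in MCF10A. All directions that follow refer to the labels as given. Whether the HT-29 and MDA-MB-436 labels were exchanged was not tested; if they were, every value of these 2 sets belongs to the other line.

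The glucocorticoid receptor is a ligand-activated transcription factor of the nuclear receptor family. Without ligand it is held in the cytoplasm by HSP90 and its co-chaperones, among them the immunophilins FKBP5 and FKBP4. Bound to cortisol it enters the nucleus, pairs on glucocorticoid response elements to raise genes such as FKBP5, TSC22D3 and PER1, and restrains AP-1 and NF-κB at inflammatory genes. Many of its targets answer to other signals as well: cAMP, serum, growth factors and stress kinases also raise PER1, DUSP1, SGK1 and ERRFI1. In mammary epithelial culture, hydrocortisone is a usual component of the medium.

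The 3 lines differed in both the receptor and its targets. MCF10A held the highest level of 6 of the 9 targets (FKBP5, PER1, DUSP1, KLF9, ZBTB16 and CEBPD). The MDA-MB-436-labelled libraries held that of TSC22D3 and ERRFI1, and the HT-29-labelled ones that of SGK1. ZBTB16 had no read outside MCF10A and could only be highest there. Just the rest of the 6 can be set beside the shares that follow. Of all tested genes, 29.0% were highest in MCF10A, 34.7% in the MDA-MB-436-labelled libraries and 36.3% in the HT-29-labelled ones. NR3C1 was near 0 reads in the MDA-MB-436-labelled libraries and at 4219 normalised counts or more elsewhere. A gene was counted as higher or lower at a Benjamini-Hochberg adjusted p below 0.05 in limma and a log2 fold change of at least 1 in size, over 15638 tested genes. In the HT-29-labelled libraries against MCF10A, 6 of the 10 genes were lower, where 18.1% of all tested genes were lower, and 0 were higher, where 28.4% of all tested genes were higher. Against MCF10A, the MDA-MB-436-labelled libraries had 5 of the 10 lower, beside a background of 23.7%, and 2 higher, beside a background of 25.6%. Set against each other, the HT-29-labelled libraries had 2 of the 10 higher than the MDA-MB-436-labelled ones (background 29.9%) and 4 lower (background 23.5%). Calls in either direction made up 46.5%, 49.2% and 53.4% of all tested genes in the 3 comparisons in that order. The first 2 of these comparisons share the MCF10A libraries. The median log2 fold change of the 10 genes was -1.47, -1.18 and 0.16 in the 3 comparisons in that order, where all tested genes had medians of 0.13, 0 and 0.09. The libraries of the 2 lines did not overlap for 10, 10 and 9 of the 10 genes, but this was common, at 92.6%, 90.0% and 93.6% of all tested genes. All 10 genes passed the filter on low values, but ZBTB16 passed through MCF10A alone and could only be lower elsewhere. Without it, 5 of 9 were lower in the HT-29-labelled libraries against MCF10A (median -1.05) and 4 of 9 in the MDA-MB-436-labelled ones against MCF10A (median -0.99).

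Calls over all genes were 4442 higher and 2823 lower in the HT-29-labelled libraries against MCF10A, and 5445 and 1990 with scaling by library size alone. For the HT-29-labelled libraries against the MDA-MB-436-labelled ones they were 4675 higher and 3675 lower, and 5692 and 2797 with library size alone. That scaling moves the median of all genes by 0.31 and 0.34 on the log2 scale in these 2 comparisons and by 0 in the MDA-MB-436-labelled libraries against MCF10A, so members whose direction or call depends on it are named as they come.

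**Figure D1:**
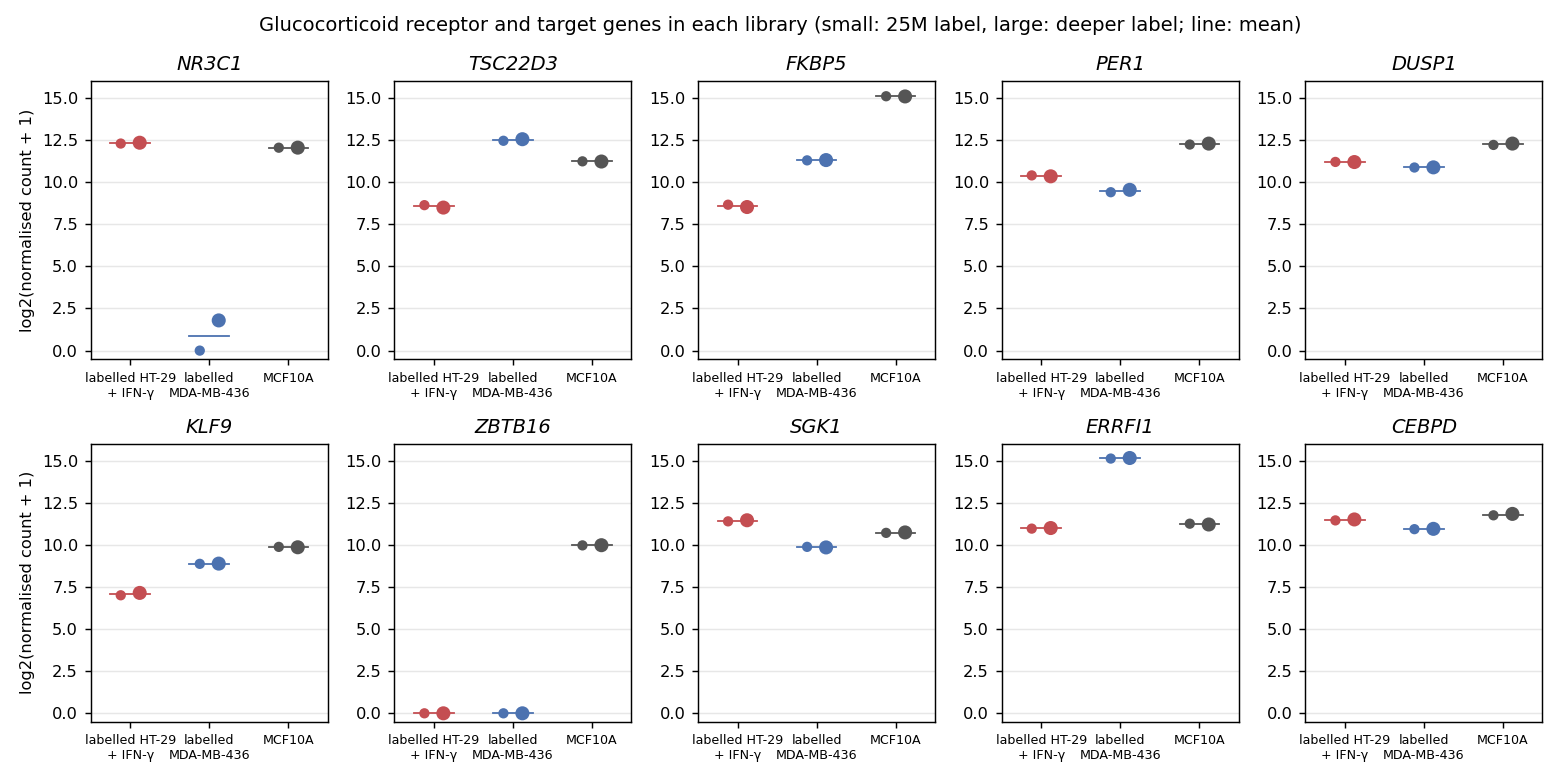
Level of the 10 genes in each library, as log2(normalised count + 1), with the lines on the horizontal axis, a small point for the library labelled 25M, a large point for the deeper one and a bar for their mean. NR3C1 lies near 0 in the MDA-MB-436-labelled libraries, ZBTB16 lies at 0 in all but MCF10A, and FKBP5 and ERRFI1 each have 1 line far above the other two.

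The promoters of 4 of these genes are shown because FKBP5, PER1 and DUSP1 were all lower than in MCF10A in both other sets of libraries, while TSC22D3 was not. The stretches are the 250 bases before a RefSeq start site on build GRCh38.p14, 5′ to 3′ on the gene's own strand, which is the minus strand for all 4. DUSP1 and PER1 have 1 window each; for FKBP5, with 2, and TSC22D3, with 4, the start shown was chosen after the motif matches were seen. They lie at chr5:172771196-172771445 (DUSP1), chr17:8152405-8152654 (PER1), chr6:35688916-35689165 (FKBP5) and chrX:107717063-107717312 (TSC22D3). Capitals mark the E-box CACGTG, which clock factors such as CLOCK and ARNTL bind, the cAMP response element (CRE) TGACGTCA, and its half-site TGACG, on either strand. In DUSP1 the run CGTCACGTG holds a half-site on the opposite strand that overlaps the E-box.
DUSP1: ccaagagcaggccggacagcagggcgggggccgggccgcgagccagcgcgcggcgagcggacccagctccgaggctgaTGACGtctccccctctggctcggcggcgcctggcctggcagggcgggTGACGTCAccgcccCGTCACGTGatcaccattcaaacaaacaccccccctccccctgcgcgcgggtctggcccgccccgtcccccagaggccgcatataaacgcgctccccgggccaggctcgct
PER1: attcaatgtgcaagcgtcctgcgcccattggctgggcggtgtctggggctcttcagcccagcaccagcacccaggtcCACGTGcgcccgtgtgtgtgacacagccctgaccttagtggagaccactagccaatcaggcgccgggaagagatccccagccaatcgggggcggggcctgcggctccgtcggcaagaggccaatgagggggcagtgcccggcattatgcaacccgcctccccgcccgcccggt
FKBP5: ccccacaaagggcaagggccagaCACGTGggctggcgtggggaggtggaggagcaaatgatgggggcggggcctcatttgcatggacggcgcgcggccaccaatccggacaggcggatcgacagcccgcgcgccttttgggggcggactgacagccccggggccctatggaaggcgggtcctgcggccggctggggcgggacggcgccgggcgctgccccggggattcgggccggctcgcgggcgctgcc
TSC22D3: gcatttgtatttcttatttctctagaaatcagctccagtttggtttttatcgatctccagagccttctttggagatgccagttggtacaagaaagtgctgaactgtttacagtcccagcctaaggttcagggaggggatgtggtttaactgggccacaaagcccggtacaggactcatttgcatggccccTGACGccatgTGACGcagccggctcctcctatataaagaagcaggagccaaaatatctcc

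Windows of 300 bases, 250 before and 50 after the start, were held for 8 of the 10 genes, 20 windows in all, and not for ZBTB16 and CEBPD. Both strands were searched, and the shares that follow are over 34943 windows of the same length. The E-box occurred in 1 window each of DUSP1, FKBP5 and PER1, and in 7.23% of all windows. The full CRE occurred in DUSP1 alone of the 8 genes, and in 1.84% of all windows. Its half-site, which every full CRE also contains, occurred in 7 windows of NR3C1, DUSP1 and TSC22D3, and in 24.5% of all windows. A glucocorticoid response element written strictly, as AGAACA and TGTTCT with any 3 bases between them, matched 0 of the 20 windows, and 0.00286% of all windows. Its half-site AGAACA matched 1 window each of FKBP5 and SGK1, and 14.8% of all windows. The interferon-γ-activated sequence TTCNNNGAA matched 1 window of NR3C1, and 7.66% of all windows. The core of the serum response element matched none of the 20 and 0.0343% of all. These matches are letters in a window, not measured binding.

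NR3C1, the receptor itself, had 5006 and 5178 normalised counts in the HT-29-labelled libraries, 0 and 2.46 in the MDA-MB-436-labelled ones, and 4219 and 4231 in MCF10A (25M library first, deeper second, here and below). The MDA-MB-436-labelled libraries held 0 and 4 reads of it. It was lower there than in MCF10A (log2 fold change -11.15, adjusted p = 4.07e-05), and in pooled reads it was 2230-fold lower (95% counting interval 870.7 to 8186). The size of this log2 fold change depends on the pseudocount. Across 19 alternatives it ran from -12.05 to -8.57. Without the 25M MDA-MB-436-labelled library the log2 fold change was -10.25, and without the deeper one it was -12.05, past the thresholds both times. Against the same libraries, the HT-29-labelled ones were higher by 11.42 on the log2 scale (adjusted p = 3.47e-05), 2706-fold in pooled reads (1057 to 9934). This log2 value ran from 8.84 to 12.31 across the alternatives. In a whole culture, fewer cells of a type and less RNA per cell cannot be told apart. The HT-29-labelled libraries both lay above the MCF10A ones, with a pooled-read ratio of 1.21 (1.18 to 1.25). That difference did not pass in limma (log2 fold change 0.27, 95% interval -1.34 to 1.88, adjusted p = 0.698), whose spread for this gene includes the pair of 0 and 2.46. With the 4 libraries of the 2 lines alone its adjusted p was 0.000129, still under the fold threshold. The 3 genes whose profile over the 6 libraries lay closest to NR3C1, by Euclidean distance between centred log2 values, were FAM20C (1.28), FAM127A (1.30) and NGFRAP1 (1.32). All 3 had no read in either MDA-MB-436-labelled library, and between 2165 and 3606 normalised counts in the other 4.

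FKBP5, the co-chaperone that lowers the receptor's affinity for its ligand and so closes a negative feedback loop, had 404 and 367 normalised counts in the HT-29-labelled libraries, 2505 and 2536 in the MDA-MB-436-labelled ones, and 35051 and 34771 in MCF10A. All 3 lines were separated. It was lower than in MCF10A in the HT-29-labelled libraries (log2 fold change -6.50, adjusted p = 4.76e-11) and in the MDA-MB-436-labelled ones (log2 fold change -3.79, adjusted p = 2.29e-10). In pooled reads these were 92.5-fold (86.8 to 98.8) and 13.8-fold (13.4 to 14.2) lower. The HT-29-labelled libraries, whose NR3C1 level was near that of MCF10A, had 6.72-fold (6.27 to 7.21) less FKBP5 than the MDA-MB-436-labelled ones, where NR3C1 was near 0 (log2 fold change -2.71, adjusted p = 9.93e-10). FKBP4, the related immunophilin that favours transport of the receptor to the nucleus, had another order of levels, at 13008 ± 331, 4428 ± 22.7 and 14334 ± 39.7 normalised counts (SD, n = 2) in the HT-29-labelled libraries, the MDA-MB-436-labelled ones and MCF10A.

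TSC22D3 encodes GILZ, a leucine zipper protein that carries part of the anti-inflammatory action of glucocorticoids. It had 396 and 358 normalised counts in the HT-29-labelled libraries, 5609.8 and 5985 in the MDA-MB-436-labelled ones, and 2406 and 2388.5 in MCF10A. The order of the lines was thus not that of FKBP5: the MDA-MB-436-labelled libraries, with the fewest receptor reads, stood highest. TSC22D3 was lower in the HT-29-labelled libraries than in MCF10A (log2 fold change -2.67, adjusted p = 4.98e-09), 6.49-fold in pooled reads (6.06 to 6.97). The MDA-MB-436-labelled libraries exceeded MCF10A by 1.27 (adjusted p = 1.67e-07), a pooled-read ratio of 2.47 (2.39 to 2.54). Between the HT-29-labelled libraries and the MDA-MB-436-labelled ones the log2 fold change was -3.94 (adjusted p = 4.85e-10). The closest profiles to TSC22D3 over the 6 libraries were those of SGPP2 (distance 0.208), CAMK2N1 (0.309) and RARG (0.389), a sphingosine phosphate phosphatase, an inhibitor of CaM kinase and a retinoic acid receptor. RARG, for instance, had 560 and 566 normalised counts in the HT-29-labelled libraries, 8139.9 and 8415 in the MDA-MB-436-labelled ones, and 2880.0 and 2748 in MCF10A.

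DUSP1, a phosphatase that switches off stress-activated MAP kinases, had 2349 and 2338 normalised counts in the HT-29-labelled libraries, 1867 and 1879 in the MDA-MB-436-labelled ones, and 4728 and 4998 in MCF10A. MCF10A was the highest, and the other 2 sets of libraries were closer together. DUSP1 was lower than in MCF10A in the HT-29-labelled libraries (log2 fold change -1.05, adjusted p = 4.69e-08) and in the MDA-MB-436-labelled ones (log2 fold change -1.38, adjusted p = 8.11e-09). The call against MCF10A in the HT-29-labelled libraries stood close to the fold threshold: with library size alone the change was -0.74, and limma's test against a fold of 2 gave an adjusted p of 0.213. The HT-29-labelled libraries and the MDA-MB-436-labelled ones differed by 0.32 on the log2 scale (adjusted p = 4.38e-05), under the fold threshold.

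PER1, a repressor in the circadian clock that glucocorticoids raise quickly, had 1349 and 1299 normalised counts in the HT-29-labelled libraries, 675 and 745 in the MDA-MB-436-labelled ones, and 4805 and 4994 in MCF10A. It was lower than in MCF10A in the HT-29-labelled libraries (log2 fold change -1.89, adjusted p = 2.09e-08) and in the MDA-MB-436-labelled ones (log2 fold change -2.79, adjusted p = 1.99e-09). The HT-29-labelled libraries lay 0.90 above the MDA-MB-436-labelled ones (adjusted p = 1.05e-06), which missed the fold threshold, but 1.23 above them with library size alone, which passed. Its relative PER3 was lowest in MCF10A, with 519 ± 0.551 normalised counts in the HT-29-labelled libraries, 553 ± 33.5 in the MDA-MB-436-labelled ones and 30.7 ± 1.03 in MCF10A (SD, n = 2), higher than in MCF10A by 4.04 (adjusted p = 9e-09) and 4.13 (adjusted p = 5.15e-09) on the log2 scale.

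KLF9, a zinc finger repressor induced by glucocorticoids and thyroid hormone, had 128 and 141 normalised counts in the HT-29-labelled libraries, 467 and 472 in the MDA-MB-436-labelled ones, and 940.03 and 925 in MCF10A. It was lower in the HT-29-labelled libraries than in MCF10A (log2 fold change -2.79, adjusted p = 1.48e-08) and lower than in the MDA-MB-436-labelled ones (log2 fold change -1.80, adjusted p = 1.13e-07). The MDA-MB-436-labelled libraries lay under MCF10A (log2 fold change -0.99, adjusted p = 4.61e-06), just short of the fold threshold for KLF9, and at -1.05 with TMM factors, where the call was made, as it was with library size alone. ZBTB16, the zinc finger repressor PLZF, had no read in any of the 4 libraries labelled HT-29 or MDA-MB-436, and 534 and 2052 reads in MCF10A, which are 999.95 and 1007 normalised counts. A count of 0 allows a level of up to 1.20 normalised counts over the HT-29-labelled libraries and 1.42 over the MDA-MB-436-labelled ones, with a floor of 3 reads over each group. ZBTB16 was at least 836.3-fold lower in the HT-29-labelled libraries and at least 707.3-fold lower in the MDA-MB-436-labelled ones than in MCF10A. These bounds are a description with no test of their own. Limma called ZBTB16 lower in both comparisons, and those calls enter the member counts. As it passed the filter through MCF10A alone, no other call was possible. CEBPD, a CCAAT-binding factor induced by glucocorticoids and cytokines, had no call in any of the 3 comparisons, at 2796 and 2907 normalised counts in the HT-29-labelled libraries, 1949.5 and 1975 in the MDA-MB-436-labelled ones, and 3447 and 3654 in MCF10A. Its log2 fold changes were -0.32 in the HT-29-labelled libraries against MCF10A (adjusted p = 0.000109), -0.85 in the MDA-MB-436-labelled ones against MCF10A (adjusted p = 2.12e-07) and 0.54 in the HT-29-labelled against the MDA-MB-436-labelled libraries, and none reached the fold threshold.

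SGK1, the kinase that mediates sodium retention through the epithelial sodium channel, had 2688 and 2812 normalised counts in the HT-29-labelled libraries, 941 and 919 in the MDA-MB-436-labelled ones, and 1674 and 1704 in MCF10A. It was the target that stood highest in the HT-29-labelled libraries, above the MDA-MB-436-labelled ones by 1.56 on the log2 scale (adjusted p = 7.22e-09), 3.01-fold in pooled reads (2.86 to 3.16). Against MCF10A the change was 0.70 (adjusted p = 8.38e-07), under the fold threshold, and 1.01 with library size alone, which passed. In the MDA-MB-436-labelled libraries it was -0.86 against MCF10A (adjusted p = 2.09e-07), under the threshold. SGK2, a related kinase, had no read in the HT-29-labelled libraries, 899 ± 32.8 normalised counts (SD, n = 2) in the MDA-MB-436-labelled ones, and 1 read in the MCF10A libraries together. ERRFI1, the feedback inhibitor of the EGF receptor also called MIG6, had 1994 and 2042 normalised counts in the HT-29-labelled libraries, 35612 and 36448 in the MDA-MB-436-labelled ones, and 2442 and 2362 in MCF10A. The MDA-MB-436-labelled libraries stood apart from the rest: above MCF10A by 3.91 on the log2 scale (adjusted p = 3.69e-11), 15.2-fold in pooled reads (14.9 to 15.6). The HT-29-labelled libraries were below the MDA-MB-436-labelled ones (log2 fold change -4.16, adjusted p = 3.1e-11). Between the HT-29-labelled libraries and MCF10A the log2 fold change was -0.25 (adjusted p = 7.87e-05), under the threshold, and 0.06 with library size alone, where the direction turned.

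**Figure D2:**
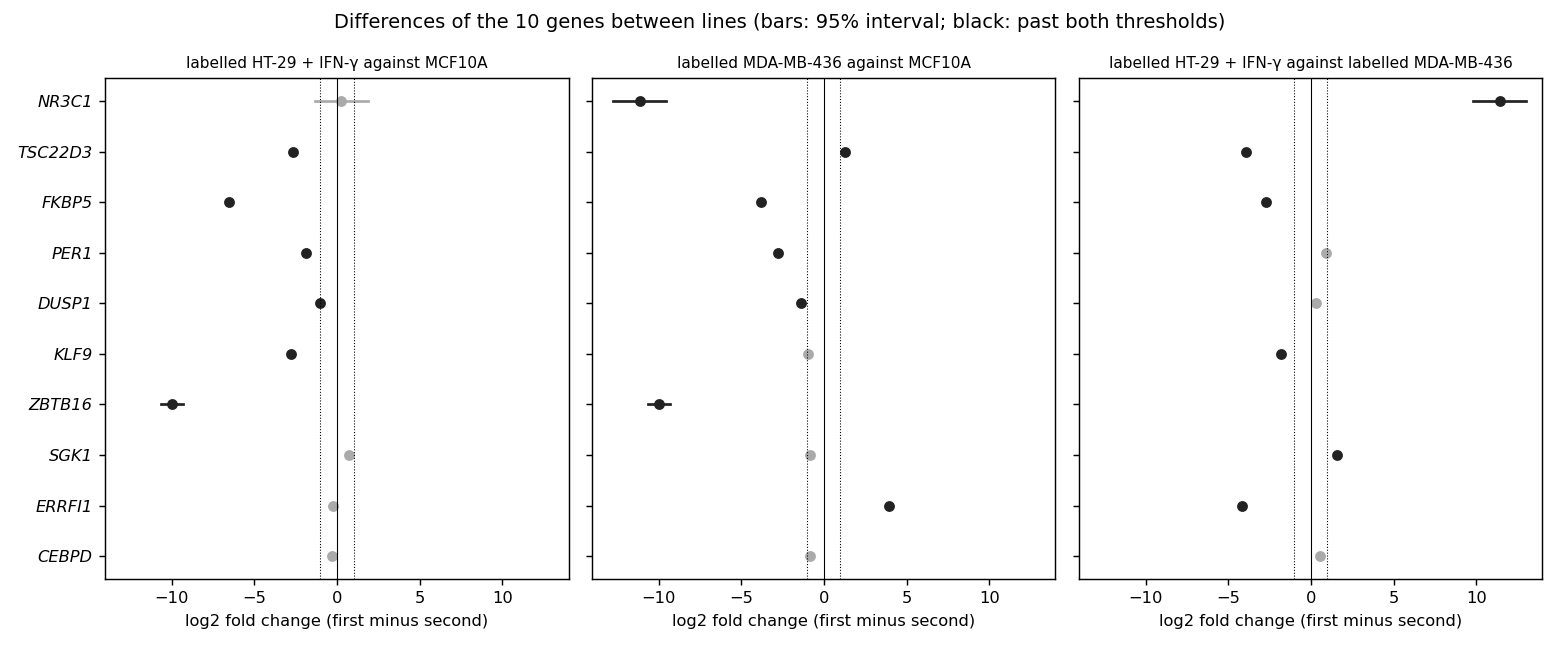
Log2 fold change of each of the 10 genes (horizontal axis; first group minus second) in the 3 comparisons, with 95% intervals from limma, dotted lines at a log2 fold change of 1 in either direction, black points past both thresholds and grey points not; ZBTB16 has no point in the third panel because it has no read on either side, and its points in the others depend on the pseudocount. The points of NR3C1 that involve the MDA-MB-436-labelled libraries also depend on the pseudocount. FKBP5, PER1 and DUSP1 lie left of 0 and past the thresholds in both comparisons with MCF10A. TSC22D3 lies at -2.67 in one and 1.27 in the other.

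The genes that fold and move the receptor were measured beside it, in a list of 12 chaperones and co-chaperones. Against MCF10A, 3 of 12 were lower and 0 higher in the HT-29-labelled libraries, and 7 of 12 were lower and 0 higher in the MDA-MB-436-labelled ones. The HT-29-labelled libraries had 3 of 12 higher and 0 lower than the MDA-MB-436-labelled ones. With library size alone these were 2 lower in the HT-29-labelled libraries against MCF10A and 5 higher against the MDA-MB-436-labelled ones. The medians were -0.64, -1.08 and 0.45 on the log2 scale, beside 0.13, 0 and 0.09 for all tested genes. In the same order, 28.4%, 25.6% and 29.9% of all tested genes were called higher and 18.1%, 23.7% and 23.5% lower. The 3 of 12 lower in the first comparison and the 3 of 12 higher in the last are near those shares. HSPA8, the constitutive HSP70, averaged 20659 ± 31.5 normalised counts in the MDA-MB-436-labelled libraries and 123748 ± 14.3 in MCF10A, a log2 fold change of -2.58 (adjusted p = 2.44e-11). FKBP4 was lower in the MDA-MB-436-labelled libraries (log2 fold change -1.69, adjusted p = 6.28e-10). In the HT-29-labelled libraries, the phosphatase PPP5C was lower than in MCF10A (log2 fold change -1.68, 2663 ± 46.3 and 8557 ± 147 normalised counts, adjusted p = 1.94e-09). HSP90AB1, a constitutive HSP90, was lower (log2 fold change -1.34, 27844 ± 79 and 70555 ± 428, adjusted p = 6.52e-10). Between the HT-29-labelled libraries and the MDA-MB-436-labelled ones, HSPA1A and FKBP4 were higher by 1.64 and 1.55 in the HT-29-labelled ones; HSPA1A has a near-identical copy, so its counts are uncertain.

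Coactivators and corepressors of the receptor were followed in a list of 12. Of these, 3 were higher and 3 lower in the HT-29-labelled libraries against MCF10A, 6 higher and 2 lower in the MDA-MB-436-labelled ones against MCF10A, and 1 higher and 5 lower in the HT-29-labelled libraries against the MDA-MB-436-labelled ones. With library size alone the split in the HT-29-labelled libraries against MCF10A was 5 higher and 2 lower. Beside 28.4% of all tested genes higher and 18.1% lower, 3 of 12 each way is near the background. For the MDA-MB-436-labelled libraries against MCF10A the background was 25.6% higher and 23.7% lower. It was 29.9% and 23.5% for the HT-29-labelled libraries against the MDA-MB-436-labelled ones. The coactivator NCOA3 averaged 1213 normalised counts in the HT-29-labelled libraries, 4675 in the MDA-MB-436-labelled ones and 3937 in MCF10A, lower in the first than in MCF10A (log2 fold change -1.70, adjusted p = 2.56e-08). The acetyltransferase CREBBP averaged 6118 normalised counts in the MDA-MB-436-labelled libraries and 2048 in MCF10A, higher by 1.58 (adjusted p = 4.08e-09). CARM1, an arginine methyltransferase, was lower than in MCF10A in the HT-29-labelled libraries (log2 fold change -1.66, adjusted p = 2.68e-09) and in the MDA-MB-436-labelled ones (log2 fold change -1.35, adjusted p = 4.19e-09).

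Other steroid receptors were measured beside NR3C1. NR3C2, the mineralocorticoid receptor, which also binds cortisol, averaged 202 ± 13.4 normalised counts in the HT-29-labelled libraries, 240 ± 4.19 in the MDA-MB-436-labelled ones and 24.0 ± 0.55 in MCF10A (SD, n = 2). It was higher than in MCF10A by 3.02 (adjusted p = 1.96e-07) and 3.27 (adjusted p = 9.88e-08) in the 2 sets. NR3C2 was thus higher both in the MDA-MB-436-labelled libraries, with almost no NR3C1 reads, and in the HT-29-labelled ones. Any link between these receptors was not tested. ESR1, an oestrogen receptor, was lower than in MCF10A in the HT-29-labelled libraries (log2 fold change -4.40, adjusted p = 7.06e-06), at 2.12 ± 0.874 normalised counts in the HT-29-labelled libraries and 63.5 ± 2.95 in MCF10A.

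Enzymes and a pump that set how much active glucocorticoid a cell holds were followed in a list of 8, of which 7 were tested (SERPINA6 was not). Of the 7, 2 were higher and 1 lower in the HT-29-labelled libraries against MCF10A, and 4 higher and 2 lower in the MDA-MB-436-labelled ones against MCF10A. The HT-29-labelled counts are near the shares of all tested genes, 28.4% higher and 18.1% lower. For the MDA-MB-436-labelled libraries against MCF10A those shares were 25.6% and 23.7%. With library size alone or with TMM factors, 3 of the 7 were higher and 2 lower in that comparison. The HT-29-labelled libraries had 2 of the 7 higher than the MDA-MB-436-labelled ones and 3 lower, beside 29.9% and 23.5% of all tested genes. There, 3 were higher with library size alone and 1 with TMM factors. HSD11B2, which inactivates cortisol to cortisone, averaged 5.12 ± 3.37 normalised counts in the HT-29-labelled libraries, 103 ± 11.5 in the MDA-MB-436-labelled ones and 392 ± 12.2 in MCF10A. It was lower than in MCF10A in the HT-29-labelled libraries (log2 fold change -6.12, adjusted p = 1.1e-06) and in the MDA-MB-436-labelled ones (log2 fold change -1.92, adjusted p = 0.0012). HSD11B1, which regenerates cortisol, was low throughout, at 25.3 ± 2.46 in the HT-29-labelled libraries, 0.308 ± 0.436 in the MDA-MB-436-labelled ones and 6.89 ± 3.5 in MCF10A. CYP3A5, which hydroxylates steroids, averaged 8.26 ± 3.17 in the HT-29-labelled libraries, 4986 ± 0.624 in the MDA-MB-436-labelled ones and 13.3 ± 4.97 in MCF10A, higher in the MDA-MB-436-labelled ones than in MCF10A by 8.49 (adjusted p = 4.94e-08). ABCB1, a pump that exports steroids, averaged 45.3 ± 3.76 in the HT-29-labelled libraries, 21.8 ± 1.21 in the MDA-MB-436-labelled ones and 1.18 ± 0.977 in MCF10A. Its difference between the HT-29-labelled libraries and the MDA-MB-436-labelled ones (log2 fold change 1.02, adjusted p = 0.0321) was lost under 10 alternatives, among them each of the 4 that leave out a library of either set, where the adjusted p was 0.0728 to 0.142.

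**Figure D3:**
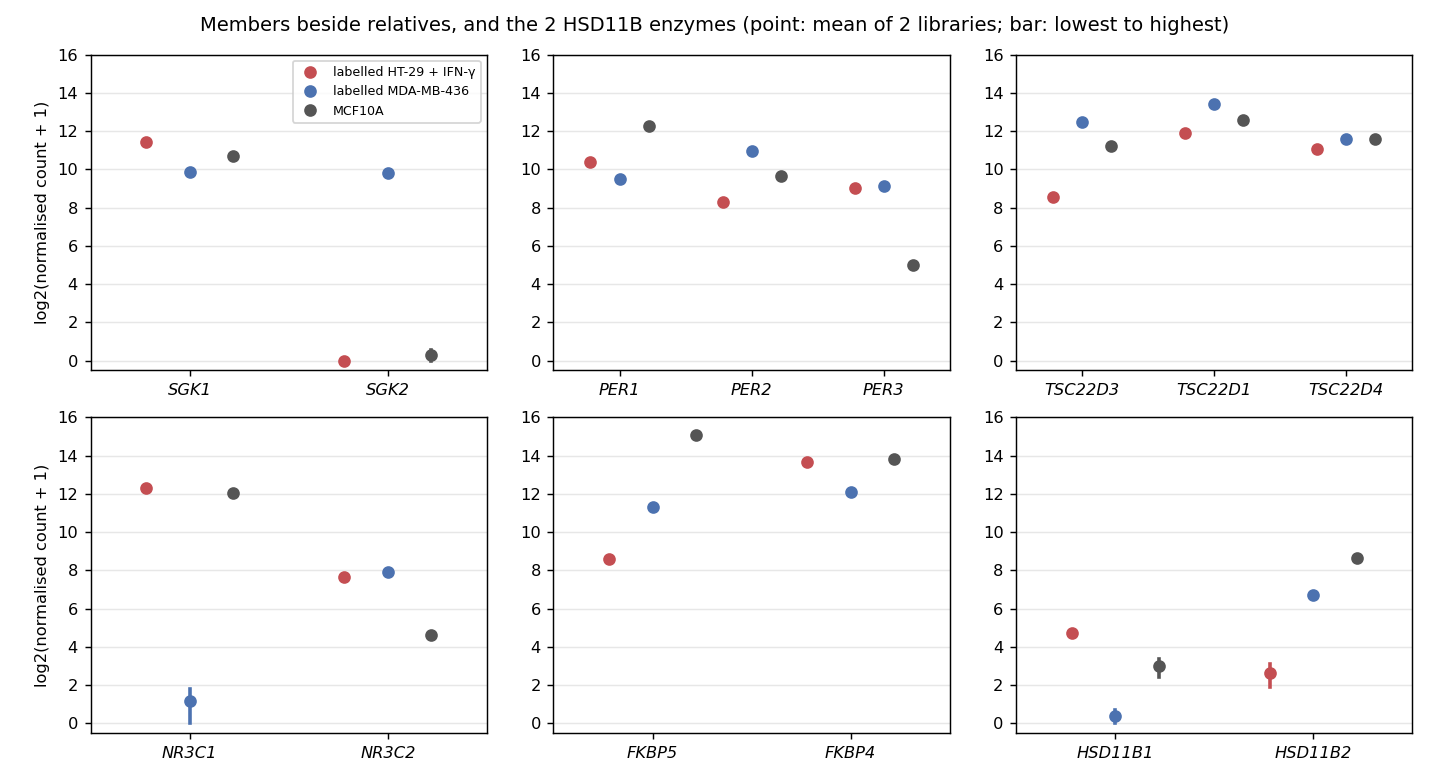
Mean level of members beside their relatives, and of the HSD11B enzymes, in each line, as log2(normalised count + 1); points are means of 2 libraries and bars run from the lowest to the highest library, hidden by the point where they are close. SGK2 has reads almost only in the MDA-MB-436-labelled libraries, PER3 is lowest in MCF10A where PER1 is highest, and NR3C2 is higher than in MCF10A in both other sets.

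The targets were then set beside a longer list of 28 other genes known to be induced by glucocorticoids. In the HT-29-labelled libraries against MCF10A, 4 were higher, 12 lower and 12 did not pass, with a median log2 fold change of -0.79. In the MDA-MB-436-labelled ones against MCF10A, 7 were higher, 12 lower and 9 did not pass, with a median of -0.45. Between the HT-29-labelled libraries and the MDA-MB-436-labelled ones the list split into 9 higher and 10 lower, with a median of 0.16. Shares of all tested genes were 28.4%, 25.6% and 29.9% higher and 18.1%, 23.7% and 23.5% lower in the same order of comparisons. Their medians were 0.13, 0 and 0.09. The 7 of 28 higher in the MDA-MB-436-labelled libraries against MCF10A lie near that share. So do the 9 of 28 higher in the HT-29-labelled libraries against the MDA-MB-436-labelled ones. SCNN1A, a subunit of the epithelial sodium channel, averaged 115 ± 4.48 normalised counts in the HT-29-labelled libraries, 8334 ± 17.8 in the MDA-MB-436-labelled ones and 11739 ± 111 in MCF10A; it was lower in the HT-29-labelled libraries than in MCF10A (log2 fold change -6.66, adjusted p = 2.3e-11). MAOA, a monoamine oxidase, was lower in the same comparison (log2 fold change -6.35, 63.4 ± 4.77 and 5235 ± 22.9, adjusted p = 2.28e-10). ANGPTL4, an inhibitor of lipoprotein lipase, and the transcription factor TFCP2L1 had the lowest log2 fold changes of the list in the MDA-MB-436-labelled libraries against MCF10A, -9.00 (adjusted p = 2.46e-08) and -8.15 (adjusted p = 2.04e-07). LCN2, an iron-siderophore binding protein that inflammation also raises, went the other way, with 1944 ± 66.2 in the HT-29-labelled libraries, 24476 ± 999 in the MDA-MB-436-labelled ones and 46.6 ± 5.55 in MCF10A. CRISPLD2, a secreted protein, averaged 89.3 in the HT-29-labelled libraries, 25.3 in the MDA-MB-436-labelled ones and 0.491 in MCF10A, and was called higher than in MCF10A in both (adjusted p = 1.74e-06 and 1.37e-05). ZFP36, which destabilises cytokine mRNAs, averaged 392 ± 5.71 in the HT-29-labelled libraries and 10336 ± 131 in the MDA-MB-436-labelled ones, lower in the HT-29-labelled libraries (log2 fold change -4.72, adjusted p = 2.54e-11). TNFAIP3, an inhibitor of NF-κB signalling, had the reverse order, at 7289 ± 0.465 and 322 ± 3.97 (log2 fold change 4.49, adjusted p = 7.32e-11).

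Inflammatory genes that glucocorticoids are known to restrain were counted over 13 of 14 tested, CSF2 having missed the filter. In the HT-29-labelled libraries against MCF10A, 12 of 13 were higher and 0 lower, with a median log2 fold change of 4.48. The MDA-MB-436-labelled libraries had 5 higher, 3 lower and 5 that did not pass against MCF10A, with a median of 0.71. Against those libraries, the ones labelled HT-29 had 12 higher and 1 lower, with a median of 3.33. In the 3 comparisons in that order, 28.4%, 25.6% and 29.9% of all tested genes were higher and 18.1%, 23.7% and 23.5% lower. Their medians were 0.13, 0 and 0.09. The 3 of 13 lower in the MDA-MB-436-labelled libraries against MCF10A lie near that share. IL6, a cytokine, averaged 1318 ± 13.6 normalised counts in the HT-29-labelled libraries, 1.03 ± 1.46 in the MDA-MB-436-labelled ones and 2.41 ± 0.759 in MCF10A. CCL2, a monocyte chemoattractant, averaged 2164 ± 55.8, 0.308 ± 0.436 and 4.08 ± 0.476 in the same order. They were higher in the HT-29-labelled libraries than in MCF10A by 8.61 (adjusted p = 1.16e-06) and 8.74 (adjusted p = 5.54e-08). IL1A and IL1B, the interleukin-1 cytokines, were both lower in the MDA-MB-436-labelled libraries than in MCF10A, IL1A the more so (log2 fold change -8.24, 10.1 ± 0.31 and 3351 ± 93.3, adjusted p = 3.04e-11) and IL1B less (log2 fold change -4.30, 11.6 ± 6.85 and 229.6 ± 14.8, adjusted p = 1.09e-05). ICAM1, an adhesion molecule that IFN-γ also induces, was the exception in the last comparison, at 5327 ± 146 in the HT-29-labelled libraries, 23465 ± 467 in the MDA-MB-436-labelled ones and 188 ± 1.25 in MCF10A. The IFN-γ genes given above moved with ICAM1 and LCN2, and their part in these results was not tested.

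**Figure D4:**
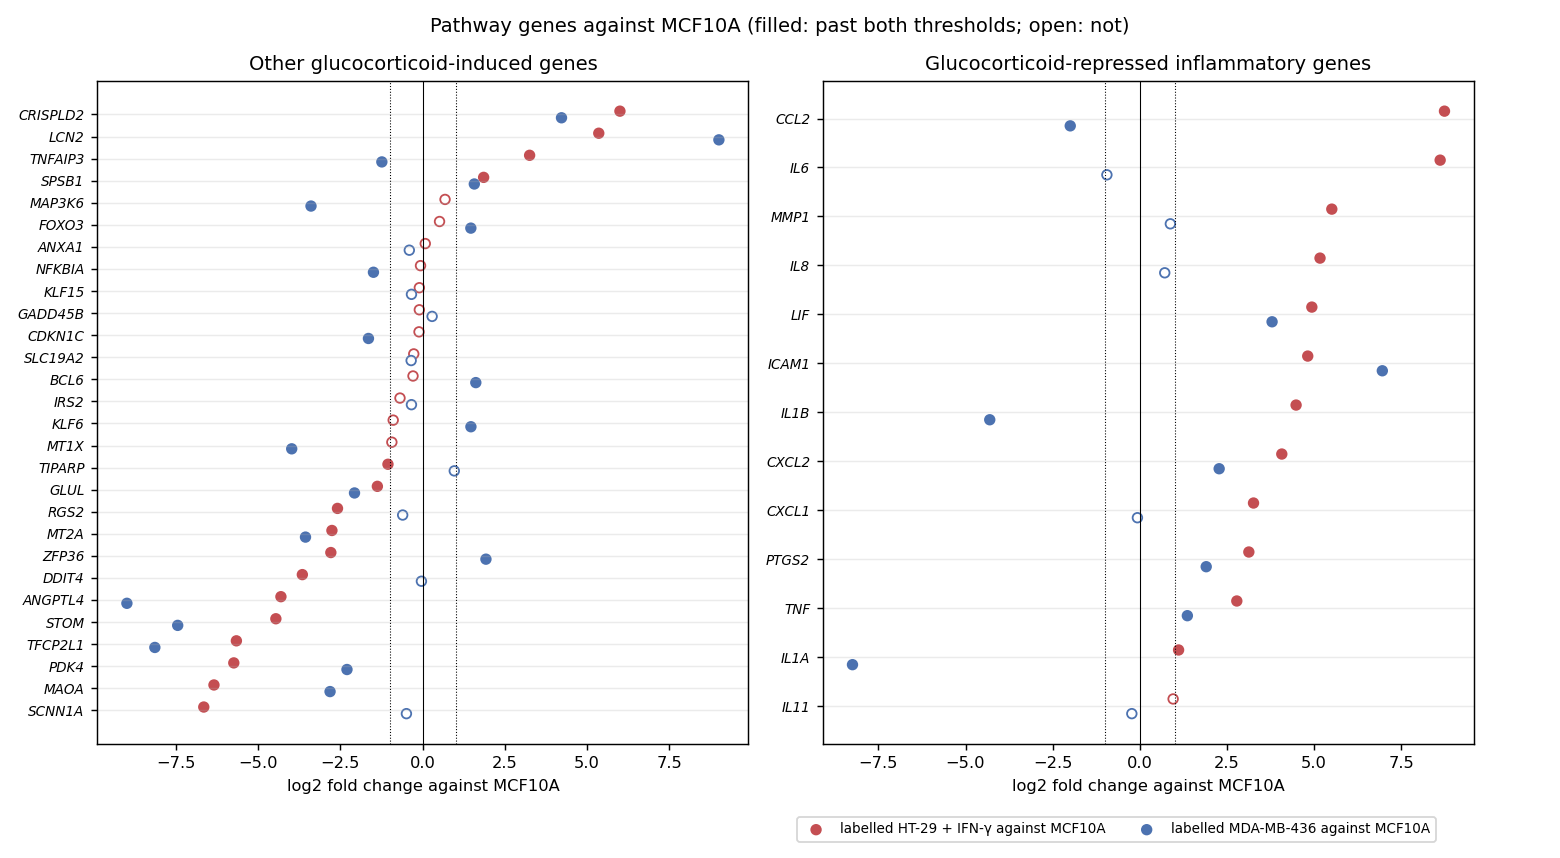
Log2 fold change against MCF10A (horizontal axis) of the tested genes of the list of induced genes (left) and of the list of repressed inflammatory genes (right), red for the HT-29-labelled libraries and blue for the MDA-MB-436-labelled ones, filled where both thresholds were passed; dotted lines mark a log2 fold change of 1 in either direction. On the right, 12 of the 13 red points are filled and right of 0, and on the left 12 filled points of each colour lie left of 0.

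The nearest relatives of the members were counted over 18 of 19 tested, SGK3 having missed the filter. Of the 18, 4 were higher and 5 lower in the HT-29-labelled libraries against MCF10A, 11 higher and 2 lower in the MDA-MB-436-labelled ones against MCF10A, and 3 higher and 10 lower in the HT-29-labelled libraries against the MDA-MB-436-labelled ones. All tested genes had shares of 28.4%, 25.6% and 29.9% higher and 18.1%, 23.7% and 23.5% lower in the same order. The split of 4 and 5 is near the first of these. Of the phosphatases related to DUSP1, DUSP4 had the same order of lines, DUSP6 and DUSP2 were highest in the MDA-MB-436-labelled libraries, and so was DUSP5, at 1334 ± 33.3 normalised counts in the HT-29-labelled libraries, 2088 ± 9.48 in the MDA-MB-436-labelled ones and 416 ± 8.05 in MCF10A (SD, n = 2; named after its values were seen). DUSP6, which acts on ERK, averaged 262 ± 18.5 normalised counts in the HT-29-labelled libraries, 7577 ± 97.6 in the MDA-MB-436-labelled ones and 3221 ± 80.2 in MCF10A, lower in the first than in MCF10A (log2 fold change -3.62, adjusted p = 9.18e-10). DUSP4 averaged 2933 ± 7.62, 1025 ± 14.9 and 9557 ± 35.8 in the same order, lower in the MDA-MB-436-labelled libraries than in MCF10A (log2 fold change -3.22, adjusted p = 6.48e-11). DUSP2 averaged 1.02 ± 0.674 in the HT-29-labelled libraries, 311 ± 23.7 in the MDA-MB-436-labelled ones and 161 ± 20.7 in MCF10A. ZBTB32, a relative of ZBTB16, averaged 98.6 ± 9.97, 2.57 ± 0.722 and 3.10 ± 0.912 in that order, higher in the HT-29-labelled libraries than in MCF10A by 4.62 (adjusted p = 4.07e-06).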

How the data were processed

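RNA of 3 human cell lines was sequenced in 2 libraries each, grouped by the cell line label. FastQC, STAR 2.2.0, HTSeq and build hg19 are named, with no role, in the submitters' processing notes; neither annotation nor strand setting is stated in them, so overlapping genes may share reads. Per the file headers, the authors deposited a normalised count and an RPKM value per gene symbol in 23368 rows; 28 date-like symbols were left out. The deposited normalised counts are a signal with 1 scaling factor per library: in each library 1 read is worth a fixed step, and dividing by it left 100% of values within 0.001 of a whole number, so whole read counts were recovered. The RPKM column deposited by the authors did not line up with the gene symbols (in 1598 rows only one of the 2 columns was 0) and was not used, so levels are not compared between genes.

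The main test was limma 3.58.1 (R 4.3.3; trend and robust options), fitted to log2(normalised count + 1) of genes with at least 10 in at least 2 libraries, with all 6 libraries in 1 fit and 3 residual degrees of freedom. This scale understates changes of low genes. Fold values come from the reads pooled per line, with 95% intervals, which, like floors, cover counting error only. The 2 libraries of a line differed by more than sampling, with a mean chi-square per gene (1 degree of freedom) of 1.98 in the HT-29-labelled pair, 1.95 in the MDA-MB-436-labelled pair and 1.31 in MCF10A. Alternatives included edgeR 4.0.16 and DESeq2 1.42.0 on recovered reads; edgeR called 4267, 3904 and 4624 genes higher and 3098, 3868 and 3781 lower in the 3 comparisons. The script was tested on simulated data. Members and gene lists were chosen with earlier results of these data known. Genes named beyond the members are up to 2 per list, direction and comparison with the largest called change, the label check genes and the 3 closest profiles to NR3C1 and TSC22D3. Some named genes are not reported here. Unnamed list members enter counts alone; PER2, TSC22D1 and TSC22D4 are shown only in a plot. Promoter sequences are RefSeq's, on GRCh38.p14.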

Additional observations from a re-analysis of the deposited data

How the results depend on the processing

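Across 19 alternatives, 555 of the values of the 10 genes kept direction and side of the threshold, 2 lost the call (DUSP1 in the HT-29-labelled libraries against MCF10A), 6 gained one (KLF9, SGK1 and PER1, as given above) and 1 reversed: ERRFI1 in the HT-29-labelled libraries against MCF10A, 0.059 with library size alone. Relative to the median of all genes it was -0.38 under both scalings. With library size alone, 1 of the 10 genes (SGK1) was higher in the HT-29-labelled libraries than in MCF10A. Counting the MCF10A libraries as 1 sample changed no member's call. ZBTB16 was not tested when an MCF10A library was left out.

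Leaving out 1 library at a time gave 0 to 0 members higher and 5 to 6 lower (of 3236 to 4403 and 2558 to 2787 genes) in the HT-29-labelled libraries against MCF10A. In the MDA-MB-436-labelled ones against MCF10A it gave 2 to 2 and 4 to 5 (of 3421 to 4003 and 3486 to 3723 genes), and in the HT-29-labelled libraries against the MDA-MB-436-labelled ones 2 to 2 and 4 to 4 (of 3522 to 4671 and 3125 to 3667). In both comparisons with MCF10A, the lower end of the members called lower came from refits without an MCF10A library, where ZBTB16 was not tested. The lone library left in a line is assumed to vary like the others.

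The deeper library is titled 100M in MCF10A, where its sample type says 50M, and 50M in the other lines. Across lines the libraries thus share only a division into 25M and deeper. Their deviations correlated at -0.00282, 0.00731 and 0.0276 between lines. A replicate block on that division gave 4451, 4005 and 4680 genes higher and 2820, 3710 and 3680 lower in the 3 comparisons. It changed the call of no member.

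Of the other named genes' values, 1767 kept their call and 16 lost it, 10 of them ABCB1. With a pseudocount of 10, HSD11B1 (-0.70) and NR4A3 (0.50), both in the MDA-MB-436-labelled libraries against MCF10A, fell under the fold threshold. NR4A3 also did without the deeper MCF10A library (0.89). With few reads, values near 0 normalised counts carry wide error.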

Other observations

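The lists that follow hold genes that answer to signals also known to act on PER1, DUSP1, SGK1 and ERRFI1, and MCF10A medium holds EGF and cholera toxin, which raises cAMP. Whether those signals set any level here was not tested. Of 12 other circadian clock genes, 7 were higher and 1 lower in the HT-29-labelled libraries against MCF10A, and 6 higher and 3 lower in the MDA-MB-436-labelled ones against MCF10A. Shares of all tested genes were 28.4% higher and 18.1% lower in the first of these comparisons, and 25.6% and 23.7% in the second. With TMM factors, 5 of the 12 clock genes were higher in the HT-29-labelled libraries against MCF10A. ARNTL, the activator that pairs with CLOCK, averaged 489 normalised counts in the HT-29-labelled libraries, 1052 in the MDA-MB-436-labelled ones and 3259 in MCF10A, lower than in MCF10A in both (log2 fold changes -2.73 and -1.63, limma adjusted p = 3.96e-09 and 3.52e-08). NR1D2, a repressor of ARNTL, was higher than in MCF10A by 2.23 (adjusted p = 3.18e-09) and 2.45 (adjusted p = 1.11e-09). BHLHE41, another clock repressor, averaged 239, 1157 and 68.2 in the same order of lines.

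Of 15 early genes of serum, EGF and MAP kinase signalling, 5 were higher and 4 lower in the HT-29-labelled libraries against MCF10A, and 10 higher and 0 lower in the MDA-MB-436-labelled ones against MCF10A. Beside these stand 28.4% higher and 18.1% lower of all tested genes in the first comparison, and 25.6% and 23.7% in the second. In the first, 7 were higher with library size alone and 4 with TMM factors. In the second, TMM factors gave 9 higher and 1 lower. EGR1, an early growth response factor, averaged 516 normalised counts in the HT-29-labelled libraries, 20377 in the MDA-MB-436-labelled ones and 2141 in MCF10A, higher in the MDA-MB-436-labelled ones than in MCF10A by 3.25 (adjusted p = 1.89e-10). JUN, a subunit of AP-1, averaged 6799.7, 8364 and 908 in the same order, higher than in MCF10A by 2.90 and 3.20. MYC, a growth regulator, was lower in the HT-29-labelled libraries than in MCF10A (log2 fold change -2.51, adjusted p = 1.92e-10).

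Of 10 cAMP-responsive genes, 6 were higher and 2 lower in the HT-29-labelled libraries against MCF10A, and 3 higher and 2 lower in the MDA-MB-436-labelled ones against MCF10A. The MDA-MB-436-labelled counts are near the shares of all tested genes, 25.6% higher and 23.7% lower. For the HT-29-labelled libraries those shares were 28.4% and 18.1%, and TMM factors gave 5 of the 10 higher. SIK1, a kinase induced by cAMP, averaged 1627 normalised counts in the HT-29-labelled libraries, 1427 in the MDA-MB-436-labelled ones and 5599.7 in MCF10A, lower than in MCF10A in both (log2 fold changes -1.78 and -1.97, adjusted p = 3.14e-09 and 1.06e-09). NR4A3, a nuclear orphan receptor, averaged 345, 7.81 and 2.61 in that order, higher in the HT-29-labelled libraries than in MCF10A by 6.66 (adjusted p = 5.79e-07).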
